A study of Mus musculus with 35 samples.

Results

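The Notch pathway genes described here are 10 coding genes chosen by name: the receptors Notch1 and Notch3, the ligands Dll1, Dll3, Dll4 and Jag1, the DNA-binding effector Rbpj, and the target genes Hes1, Hes5 and Hey1. They were 10 of the 15560 coding genes whose starts could be placed on the peak lists. The rule uses gene names and no peak value. The peak lists are on the mouse build mm9, and gene starts came from a GRCm38 table, so each start was moved by the offset that put most neighbouring coding genes on H3K4me3 peaks of wild-type P0 retinae. Peaks within 2 kb of the moved start were taken as promoter peaks, and H3K27Ac and Brg1 peaks were also taken over the gene and 20 kb to each side.

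The study asked what the chromatin remodeller Brg1 does in the developing mouse retina, and mapped Brg1 and histone marks by ChIP-Seq, which sequences DNA bound to an antibody's target. Brg1 was mapped in flash-frozen P0 (postnatal day 0) retinae of Brg1-FLAG knock-in mice, in which the endogenous Brg1 was tagged with FLAG (1 library). Wild-type retinae were mapped for H3K27Ac and H3K4me3, with 2 libraries of each mark at P0, P14 and P21 and 1 of each at P12. Brg1-deficient retinae carried Chx10-Cre and Brg1 Lox/Lox and were mapped at P12, with 2 libraries for H3K27Ac and 1 for H3K4me3. H3K27me3 was mapped with an antibody marked AB1 at P0, P14 and P21 and with AB3 at P12, in 2 wild-type libraries per stage and 1 Brg1-deficient library. Chx10-Cre is mosaic and acts in retinal progenitors, so a Brg1-deficient retina also holds cells that kept Brg1. For ChIP-Seq the study preferentially chose mice with small eyes, in which Cre expression was more extensive, to have fewer wild-type cells. By immunofluorescence at P12 it found that most recombined cells lacked Brg1 protein. Loss of Brg1 was not checked here, since the marks at its promoter do not show it and Brg1 was mapped only in the knock-in retinae. The study describes its duplicate libraries as biological ones, while the labels do not name the animals or pools behind each library.

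In Notch signalling, a ligand on the surface of a cell binds a Notch receptor on its neighbour, and the receptor is cut so that its inner part moves to the nucleus. There it joins Rbpj on DNA and switches on Hes and Hey genes, which encode bHLH repressors of neuronal genes. In the retina the pathway is known for keeping progenitors undifferentiated and for favouring Müller glia. H3K4me3 marks promoters, H3K27Ac marks active promoters and enhancers, and H3K27me3 marks regions held by Polycomb proteins.

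The upstream DNA of 5 of these genes is shown, since their promoters carry the patterns that follow. Hes5 and Rbpj hold the core letters of the Rbpj site. Notch1 has lower promoter H3K4me3 and H3K27Ac heights after P0, and Dll3 lower H3K4me3 heights. Both P21 acetylation heights of Jag1 lie above its P0 heights. Each sequence is the 250 bases before the start in RefSeq's GRCm38.p6 promoter table (Hes5 chr4:154960673-154960922, plus strand, then Rbpj chr5:53590096-53590345, plus strand, then Notch1 chr2:26503823-26504072, minus strand, then Dll3 chr7:28301786-28302035, minus strand, then Jag1 chr2:137116521-137116770, minus strand), written 5′ to 3′ on the gene's strand. Capitals mark TGGGAA, the core of the Rbpj site, or GTGGGAA, on either strand.
Hes5: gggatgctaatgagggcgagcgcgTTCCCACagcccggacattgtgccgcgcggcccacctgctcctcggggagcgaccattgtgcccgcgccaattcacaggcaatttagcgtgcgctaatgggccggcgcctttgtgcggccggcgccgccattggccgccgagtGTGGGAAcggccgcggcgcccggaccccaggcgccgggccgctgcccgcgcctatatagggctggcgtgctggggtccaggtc
Rbpj: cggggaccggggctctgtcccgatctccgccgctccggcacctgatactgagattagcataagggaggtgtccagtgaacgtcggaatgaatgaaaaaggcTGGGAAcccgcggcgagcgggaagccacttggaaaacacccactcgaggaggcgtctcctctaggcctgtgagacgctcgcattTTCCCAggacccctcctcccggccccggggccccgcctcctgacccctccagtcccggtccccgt
Notch1: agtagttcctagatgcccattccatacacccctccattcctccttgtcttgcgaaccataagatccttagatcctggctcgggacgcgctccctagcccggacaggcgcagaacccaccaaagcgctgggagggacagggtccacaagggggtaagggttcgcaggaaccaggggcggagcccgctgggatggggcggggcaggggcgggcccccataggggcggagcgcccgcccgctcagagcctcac
Dll3: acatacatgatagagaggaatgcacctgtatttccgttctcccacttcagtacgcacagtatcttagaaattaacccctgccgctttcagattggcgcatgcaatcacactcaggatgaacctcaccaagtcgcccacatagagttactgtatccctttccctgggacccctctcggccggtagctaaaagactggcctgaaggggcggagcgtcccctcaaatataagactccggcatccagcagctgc
Jag1: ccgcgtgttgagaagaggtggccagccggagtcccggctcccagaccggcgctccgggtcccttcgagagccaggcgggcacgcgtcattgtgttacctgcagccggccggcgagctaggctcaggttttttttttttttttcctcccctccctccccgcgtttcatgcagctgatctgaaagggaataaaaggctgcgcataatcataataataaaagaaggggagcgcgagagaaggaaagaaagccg

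The table held promoters of 8 of the 10 genes, with Hes1 and Hey1 not matched, and the first listed start is shown for Rbpj. Hes5 held GTGGGAA on its own strand at position -83 from the start and on the opposite strand at -226. Rbpj held TGGGAA at -149 on its own strand and at -65 on the opposite strand. The other 6 matched genes had neither letters in the 300 bases searched, from 250 before to 50 after the start. Over all 32851 promoters of the table, TGGGAA on either strand stood in 25.6% and GTGGGAA, which contains it, in 6.38%. CACGTG, a sequence that many bHLH proteins bind, stood in 7.15% of promoters and in none of the 8. CACNAG, the letters bound by Hes repressors, stood in 42.5% of promoters and in Notch1, Notch3, Dll1 and Dll4. TATAAA stood in 13.6% of promoters and in none of the 8. Hes5 was the richest in bases G and C of the 8, at 72.7% with 41 CpG pairs. Dll3, at 52.0% with 11 CpG pairs, was close to the median of all promoters, 52.7% with 7 CpG pairs. Jag1 had 55.7% with 22 and Notch1 68.3% with 23. These matches describe letters and were not tested as bound sites.

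Peaks were called in each library alone, and the height of a peak is its fold enrichment over background, which depends on the depth and enrichment of its library. Reads per library are unknown, so the number of peaks stands in for depth. The H3K4me3 lists held 18534 to 24124 peaks and the Brg1 list 50861. The H3K27Ac lists were uneven, with 17433 to 18718 peaks in P0 replicate 1, P14 replicate 1 and P21 replicate 1 and 29304 to 50005 in the other 6. An absent H3K27Ac peak in a short list is therefore weaker evidence than in a long one. The tissue label was checked with promoter H3K27Ac. Of 4 placed rod genes, 1 and 2 had a peak at P0, with summed heights of 7.74 to 8.09, and all 4 had one in the 7 later libraries, at 61.3 to 79.9. The 2 placed progenitor genes, Sfrp2 and Lhx2, summed to 19.7 to 23.0 at P0 and 0 to 16.0 later. Of 3 Müller glia genes, 2 to 3 had a peak at P0, summing to 22.1 to 28.5, and 1 to 2 later, at 5.78 to 20.8. At most 1 of 3 endothelial genes, at 0 to 3.78, and 1 of 4 pericyte genes, at 0 to 5.31, had a peak, and none of 4 pigment epithelium and lens genes or of 3 microglia genes did. In whole retinae, fewer cells of a type and less of a mark per cell cannot be told apart. For H3K27Ac and for H3K4me3, every P14 and P21 library had a higher rod sum and a lower progenitor sum than both P0 libraries. At P12 the wild-type H3K4me3 progenitor sum, 83.0, lay between the P0 sums of 80.8 and 85.1. The part of the rod and progenitor marks in the results was not tested.

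At P0, all 10 genes had an H3K4me3 promoter peak in both libraries, as did 66.2% of placed genes. Notch1 was called lower at P14 and at P21 and Notch3 at P21, Dll3 had no peak at P14, and the other 7 promoters were not called. Notch1, a receptor of retinal progenitors, had H3K4me3 heights of 38.7 and 70.7 at P0, 15.9 and 19.1 at P14, and 31.0 and 5.95 at P21. Every later library was below both P0 libraries, but the 2 P21 libraries stood far apart, and so did their median promoter heights, 62.2 and 23.8. After the libraries were scaled to the same median, Notch1 stood at 38.1 and 67.3 at P0, 17.5 and 20.2 at P14, and 18.2 and 9.27 at P21, so that the P21 libraries lay closer together and all 4 later values stayed below both P0 values.

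The scaled heights were compared with limma on log2(height + pseudocount), for promoters with a peak in all 6 wild-type libraries, which 9 of the 10 genes and 63% of placed genes passed. The fit gave all promoters the same standard error, 0.29. On this log2 scale Notch1 fell by 1.09 at P14 against P0 (adjusted p = 0.0206) and was the only one of the 9 called, where 1.27% of 9810 promoters were called in either direction and 0.846% as lower. At P21 it fell by 1.40 (adjusted p = 0.00029), with 4.89% of promoters called and 4.32% called lower. Both comparisons use the same P0 libraries. The P14 call ended without P0 replicate 2 (adjusted p = 0.571), without P14 replicate 2 (0.163), without P14 replicate 3 (0.0741), without scaling (0.9999), and when a peak in at least 2 libraries sufficed (0.0761), within a range of 0.0117 to 0.9999 over all alternatives. The P21 call ended without P0 replicate 2 (adjusted p = 0.126) and without scaling (0.996), within a range of 6.54e-06 to 0.996, and no promoter was called at either stage without scaling.

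Notch3, a receptor best known from vascular mural cells, had H3K4me3 heights of 26.02 and 35.3 at P0, 11.9 and 12.8 at P14, and 14.2 and 9.57 at P21. The 4 libraries of P14 and P21 all lay below both P0 libraries, and the wild-type P12 library, at 30.0, lay between the P0 heights. On the log2 scale of the limma fit Notch3 fell by 0.89 at P21 (adjusted p = 0.0414), and its difference at P14 was -0.76 (adjusted p = 0.187). The P21 call ended without P0 replicate 1 (adjusted p = 0.0993), without P0 replicate 2 (0.406), without P21 replicate 1 (0.417), without scaling (0.9999) and when a peak in at least 2 libraries sufficed (0.0510), against the lowest value of 0.00792 with a pseudocount of 1. Of 4 placed pericyte and smooth muscle genes, 2 had an H3K4me3 peak at P0, with summed heights of 29.7 to 40. In all 6 later libraries, P12 included, 1 of 4 had one, at 5.65 to 23.2. Other cell type lists also differed. The progenitor sums were 80.8 to 85.1 at P0 and 32.5 to 83.0 later, and the Müller glia sums 87.7 to 90.0 and 36.0 to 94.8. The rod sums went the other way, from 17.1 to 29.2 at P0 to 102 to 271 later. The part of any of these cells in the Notch3 value was not tested.

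Dll3, a divergent ligand that does not activate receptors on neighbouring cells, had the lowest P0 heights of the 10, at 20.2 and 25.1. Neither P14 library listed a peak, and at P21 only replicate 1 did, at 4.65. A promoter with a peak in both P0 libraries and neither P14 library was found for 1.17% of placed genes and for Dll3 alone of the 10. With a peak required in only 2 libraries, a filter under which 1.85% and 6.30% of 10437 promoters were called, its difference in the limma fit was -1.95 at P14 (adjusted p = 0.00188) and -1.73 at P21 (adjusted p = 0.00249). It passed that filter only through the stage where it is high, so it had to differ, and these values carry no weight as a test.

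The ligands that signal to neighbours kept their H3K4me3 peaks in all 6 libraries. Dll1 had heights of 41.0 and 45.2 at P0, 33.5 and 24.1 at P14, and 60.4 and 15.3 at P21. Dll4, which is also known from sprouting vessels, had 36.4 and 40.8 at P0, 26.8 and 21.1 at P14, and 42.7 and 17.1 at P21. At P14 both lay below P0 in each library, while at P21 the 2 unscaled libraries lay on either side. After scaling, Dll1 stood at 40.3 and 43.1 at P0 and at 36.9, 25.5, 35.4 and 23.9 in the later libraries, and Dll4 at 35.8 and 38.8 against 29.5, 22.4, 25.1 and 26.7, so that all later values of both lay below P0. Their differences in the limma fit, -0.34 and -0.41 at P14 and -0.40 and -0.40 at P21, did not pass (adjusted p from 0.573 to 0.701). Jag1, a ligand of the Jagged family, had 45.5 and 33.5 at P0, 38.7 and 35.1 at P14, and 59.3 and 40.5 at P21. Its stages overlapped, and its differences were 0.06 (adjusted p = 0.960) and 0.26 (adjusted p = 0.798).

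Rbpj, the protein through which the receptors act on DNA, had the highest P0 height of the 10 in both libraries, at 55.6 and 70.9, then 49.9 and 50.3 at P14 and 75.1 and 47.9 at P21. Its differences from P0 were -0.14 (adjusted p = 0.885) and -0.07 (adjusted p = 0.959). Hes1, a target that represses neuronal genes, had 33.7 and 25.7 at P0, 37.6 and 42.8 at P14, and 47.6 and 21.5 at P21. Both P14 libraries lay above P0, with a difference of 0.47 that did not pass (adjusted p = 0.541), and the P21 difference was 0.08 (adjusted p = 0.956). Hes5, a target used in progenitors and Müller glia, had 39.2 and 30.3 at P0, 24.0 and 19.6 at P14, and 38.0 and 16.4 at P21. After scaling, the later libraries of Hes5, at 20.7 to 26.4, all lay below P0, at 38.6 and 28.9. Hey1 had 40.6 and 54.4, then 23.5 and 41.9, then 70.7 and 26.97. Neither passed at either stage, with differences from -0.38 to -0.10.

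**Figure D1:**
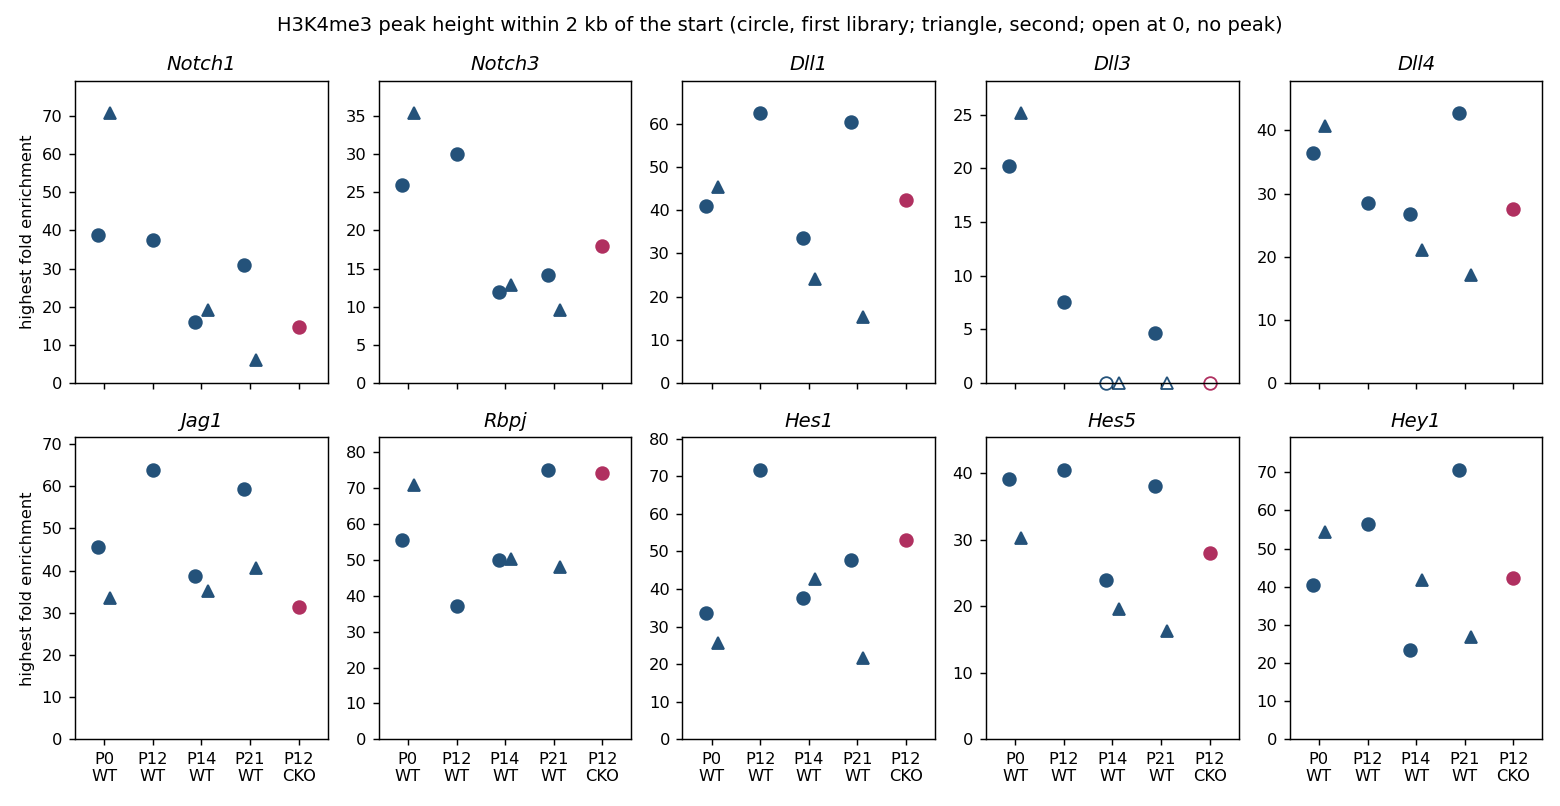
H3K4me3 promoter heights (fold enrichment over background, unscaled) of the 10 genes in the 8 H3K4me3 libraries, grouped by stage and genotype, with 1 point per library. Notch1 falls from 38.7 and 70.7 at P0 to 5.95 to 31.0 at P14 and P21, and Dll3 is at 0, which means no peak, in both P14 libraries, while Rbpj stays between 37.2 and 75.1 throughout.

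Over the 9 genes tested, 7 had a negative difference at each stage, with medians of -0.34 at P14 and -0.36 at P21 against -0.01 and -0.06 over all promoters. A list of 54 other pathway genes had 40 placed and 37 tested. Of these 37, 1 passed at each stage, as lower, and their medians were -0.14 and -0.15. Over all 9810 promoters, 1.27% were called at P14 and 4.89% at P21, with 0.846% and 4.32% called lower. The count of 1 was not tested against these shares. The gene that passed was Lfng at both stages, a Fringe enzyme that adds sugars to Notch receptors and changes their response to ligands. Lfng had H3K4me3 heights of 50.02 and 46.5 at P0, 12.1 and 20.8 at P14, and 22.3 and 7.68 at P21. It fell by 1.06 at P14 (limma, adjusted p = 0.0249) and fell by 1.34 at P21 (adjusted p = 0.000498). The P14 call of Lfng ended without P0 replicate 1 (adjusted p = 0.223), without P0 replicate 2 (0.197), without P14 replicate 2 (0.300) and without scaling (0.9999), over a range of 0.0105 to 0.9999, and the P21 call ended only without scaling (0.996) among its 10 alternatives.

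Promoter H3K27Ac peaks were listed for 9 and 10 of the 10 genes at P0, where 53.3% and 60.3% of placed genes had one. The numbers were 6 and 10 at P14 (40.6% and 62.5% of placed genes), 4 and 9 at P21 (34.5% and 58.5%), 9 in the wild-type P12 library (58.1%) and 9 and 9 in the Brg1-deficient ones (60.4% and 60.1%). H3K27Ac at the promoters separated the genes differently: Notch1 had a peak in both P0 libraries and in neither at P21, and Jag1, Rbpj, Hes5 and Hey1 had one in all 6 wild-type libraries of P0, P14 and P21. The Notch1 pattern was seen for 1.91% of placed genes and the other for 31.3%. None of the 10 had a peak in both P0 libraries and in neither P14 library, as 0.662% of placed genes had. Notch1 had H3K27Ac heights of 9.38 and 21.2 at P0, 0 and 5.53 at P14, and 0 and 0 at P21, where 0 means that no peak was listed. Both P0 libraries were above all later ones, including the longer lists of P14 replicate 2 and P21 replicate 2. With its zeros, Notch1 did not enter the limma fit of promoters with a peak in every library. Notch3 had 6.26 and 5.70 at P0, 0 and 4.19 at P14, and 0 and 4.57 at P21, so its zeros fell in the short lists.

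Among the ligands, Dll1 had H3K27Ac heights of 9.81 and 8.73 at P0, 4.27 and 9.38 at P14, and 0 and 7.35 at P21. Dll3 had 6.32 and 7.50 at P0, 0 and 4.40 at P14, and 0 and 6.21 at P21. Dll4 had none in P0 replicate 1, P14 replicate 1 and P21 replicate 1 and 5.08, 4.80 and 5.6 in the other library of each stage. The zeros of Dll1, Dll3 and Dll4 all stood in the short lists. Jag1 went the other way, with 3.12 and 6.23 at P0, 5.56 and 13.6 at P14, and 7.04 and 12.3 at P21. Both P21 heights of Jag1 lay above both P0 heights, and the P14 heights overlapped with P0. In the limma fit its difference was 0.41 at P14 (SE 0.27, adjusted p = 0.602) and 0.89 at P21 (SE 0.27, adjusted p = 0.116). The P21 difference passed when only the P0 and P21 libraries were fitted (adjusted p = 0.0477), a setting that called 168 promoters in place of 23.

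Rbpj had the highest H3K27Ac height of the 10 in P0 replicate 1 and stood below Notch1 in replicate 2, at 27.02 and 19.9, then 14.1 and 19.1 at P14 and 7.85 and 13.4 at P21. The P21 heights lay below both P0 heights, and the scaled differences were -0.49 (adjusted p = 0.527) and -0.53 (adjusted p = 0.393). Hes1 had 6.50 and 7.46, then 2.86 and 9.73, then 0 and 3.56. Hes5 had 8.51 and 10.2, then 4.0 and 17.2, then 3.18 and 9.49. Hey1 had 8.35 and 12.3, then 9.76 and 17.4, then 7.65 and 13.5. The stages of Hes5 and Hey1 overlapped and neither passed. Of the 4 genes tested, 0 were called by limma at P14 or at P21, where 0.329% and 0.473% of 4866 promoters were called. At an unadjusted p under 0.05, 4 of the 20 other pathway genes tested passed at P14 and 5 at P21, where 11.8% and 14.5% of all 4866 promoters did, and 0 of the 20 passed after adjustment.

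**Figure D2:**
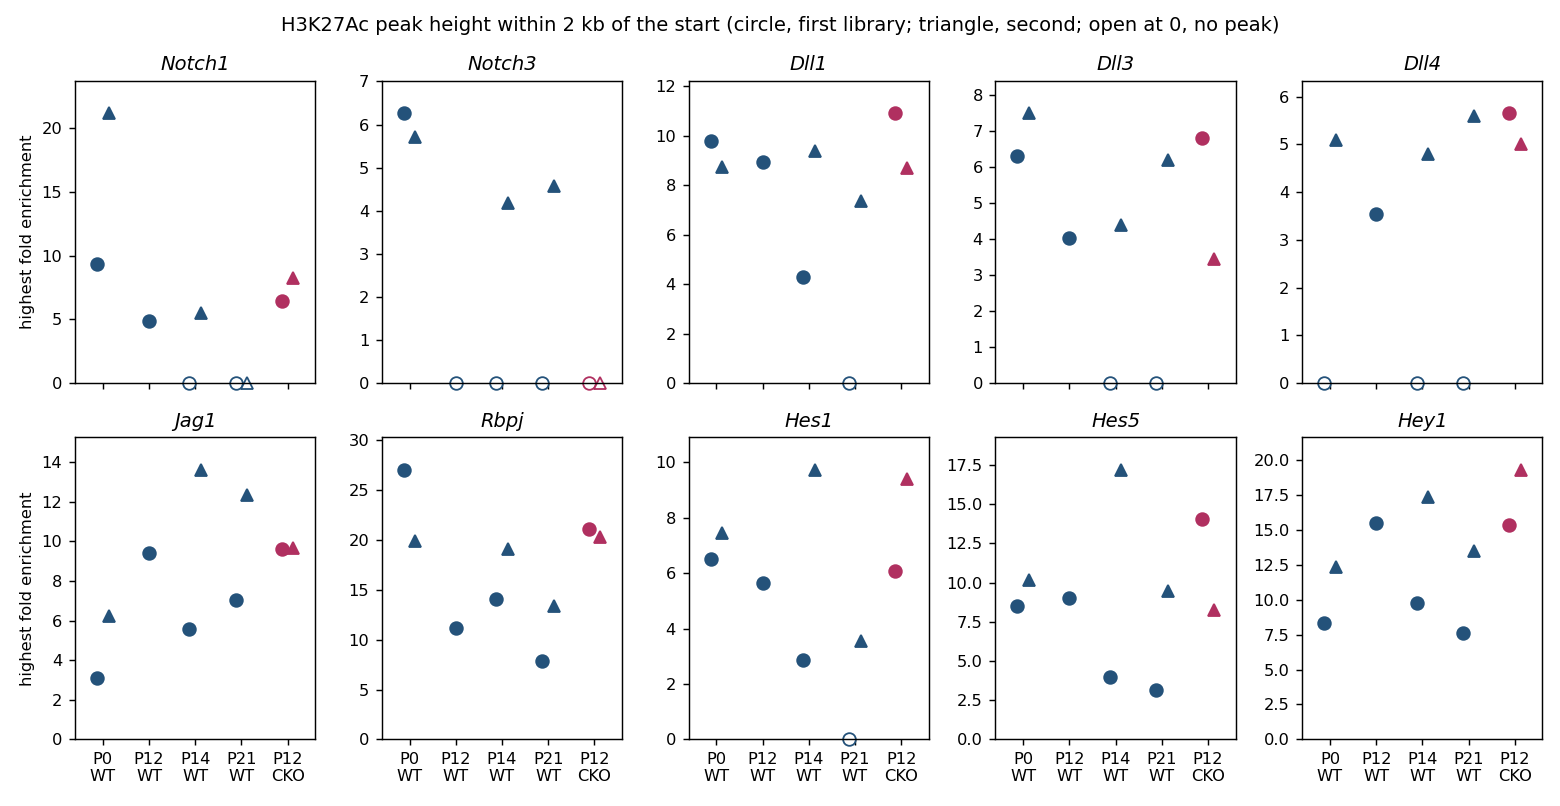
H3K27Ac promoter heights (fold enrichment over background, unscaled) of the 10 genes in the 9 H3K27Ac libraries, grouped by stage and genotype, with 1 point per library and 0 for no peak. Notch1 goes from 9.38 and 21.2 at P0 to 0 in both P21 libraries, and Jag1 from 3.12 and 6.23 at P0 to 7.04 and 12.3 at P21.

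Beyond the promoters, overlapping H3K27Ac peaks of the 9 libraries were merged into regions, and the 10 genes with their 20 kb flanks held 97 of them. Of these, 18 lay within 2 kb of the gene's own start, 9 near the start of another gene, and 71 away from any, with the Hes5 promoter region counted in both of the first groups. Notch1 had 29, Jag1 14, Hes5 13, Dll4 11, Dll3 9, Notch3 7, Dll1 5, Hes1 4, Hey1 4 and Rbpj 1. The number per library followed the length of its list, from 11 and 12 in P21 replicate 1 and P14 replicate 1 to 62 in P14 replicate 2.

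Within Notch1, acetylated regions were listed inside the gene at P0, and none of these was listed at P21. The region chr2:26341667-26346451 of mm9, 15.3 kb into the gene, had heights of 7.94 and 8.83 at P0, 0 and 4.55 at P14, and 0 and 0 at P21. The region chr2:26354232-26356232, 4.17 kb from the start, had 4.92 and 10.1, then 2.98 and 6.21, then 0 and 0. The P21 libraries held 1 and 4 regions in the Notch1 window, and those lay 53.6 to 59.2 kb from the start, beyond the gene's end, some at the start of the neighbouring gene Sec16a. At P12, the 15.3 kb region had 3.88 in the wild-type library and 6.28 and 3.52 in the Brg1-deficient ones, and the 4.17 kb region had 5.13 and then 7.29 and 7.13.

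Jag1 showed the opposite order. Its window held 1 region in each P0 library, the promoter, against 2 and 9 at P14 and 2 and 10 at P21. A region of 4657 bp inside the gene, chr2:136916390-136921046 of mm9, 23.4 kb from the start, had no peak in either P0 library. Its heights were 15.5 and 9.42 at P14, 8.03 and 13.1 at P21, 10.3 in the wild-type P12 library and 5.68 and 10.1 in the Brg1-deficient ones. All 7 later libraries listed it, the short lists included. Since it had no peak at P0, it did not enter the fit of regions with a peak in every library. The promoter region, chr2:136939133-136943708, did, with a difference at P21 of 0.88 (limma, SE 0.29, adjusted p = 0.0812). It passed with a pseudocount of 1 (adjusted p = 0.0384), a setting that called 3.74% of the 6394 regions. It also passed with the replicate number as a block (0.0435), which called 5.02%. Over all 6394 regions fitted, 1% were called at P14 and 2.78% at P21. Of the 7 regions in the windows of the 10 genes that entered the fit, 0 were called at either stage. The 7 were 1 each in the windows of Notch1, Dll1, Dll3, Jag1, Rbpj, Hes5 and Hey1. The Notch1 region lay 57878 bp from its start, near the start of Sec16a, and the Dll1 region near the start of Fam120b. The Dll3 region lay 23640 bp from its start, and the Hes5 region also covered the start of Pank4. These regions may belong to other genes. The other regions, including those inside Notch1 and Jag1, were not tested.

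Of the smaller sets, Notch3 had a pair of regions 52.9 and 48.7 kb from its start, beyond its end, without a peak at P0 and with 4.86 and 5.45, and 4.94 and 4.70, at P21. Hes1 had a region 0.89 kb from its start with 4.34 and 6.45 at P0, 0 and 3.79 at P14, and 0 and 0 at P21, and another 4.84 kb from the start that P21 replicate 2 still listed, at 6.21. Dll4 had a region 12.1 kb from its start, with 3.25 and 7.64 at P0, 7.26 in P14 replicate 2 and 5.70 in P21 replicate 2. Rbpj, the longest gene of the 10 at 102 kb, had no H3K27Ac region besides its promoter. The Hes5 promoter region of 8841 bp also covered the start of Pank4, so its heights, 8.59 and 10.9 at P0 and 7.77 and 11.8 at P21, cannot be given to Hes5 alone.

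**Figure D3:**
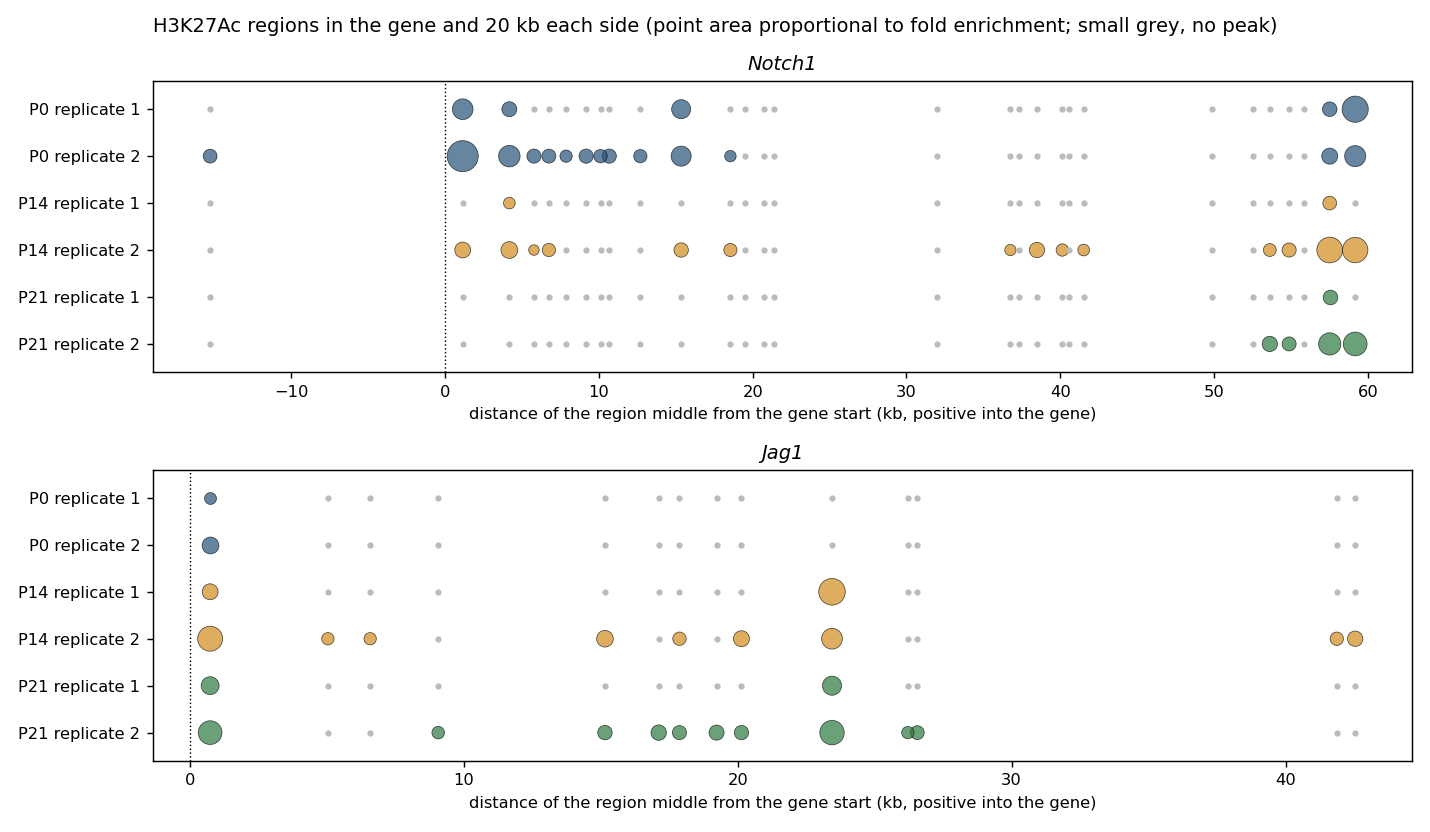
H3K27Ac regions of the Notch1 and Jag1 windows by distance of the region's middle from the gene start (kb), with a line of points for each of the 6 wild-type libraries of P0, P14 and P21, point area proportional to fold enrichment and small grey points for no peak. No Notch1 region within 20 kb of the start is listed at P21. At P0, the promoter region and those 15.3 and 4.17 kb from the start are listed in both libraries. The rest are listed at P0 in replicate 2 alone or not at all. The Jag1 region 23.4 kb from the start is absent at P0 and reaches 8.03 and 13.1 at P21.

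Brg1 is the ATPase of the SWI/SNF (BAF) complex, which moves and ejects nucleosomes. All 10 genes had a Brg1 peak within 2 kb of the start at P0, where 57.9% of placed genes did. The Notch1 peak was the highest, at 16.6, above 99.5% of the promoter peaks. Hes5 had 12.7, Rbpj 12.1 and Dll4 10.3. Hes1 at 9.0, Dll1 at 8.84, Dll3 at 8.48, Jag1 at 7.87 and Hey1 at 7.30 followed, and Notch3 was the lowest at 6.47, above 60.8%. With 1 Brg1 library, the order of neighbouring heights has no replicate check.

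Over the genes and their flanks, 80 Brg1 peaks were listed. The most were at Notch1, with 19, then Hes5 with 13, Dll3 with 12, Dll1 and Hes1 with 8 each, Dll4 with 7, Notch3 and Jag1 with 4 each, Hey1 with 3 and Rbpj with 2. Per 100 kb, the median of the 10 was 15.1 peaks against 2.38 over all placed genes. A 6533 bp peak of height 16.6 covered the Notch1 start (chr2:26353849-26360381 of mm9), and a 6555 bp peak (chr2:26340404-26346958) covered the 15.3 kb region whose acetylation was listed at P0 and not at P21. Dll4 had the longest, at 6565 bp (chr2:119145809-119152373), and Hes5 had one of 6160 bp (chr4:154332851-154339010) over the promoter that holds both GTGGGAA copies, while the 2 peaks of Rbpj were 1786 and 751 bp long. In contrast, the Jag1 region 23.4 kb from the start, without acetylation at P0, also had no Brg1 peak, and 1 of 14 Jag1 regions had one against 17 of 29 at Notch1. Of the 97 regions of the 10 genes, 62 had a Brg1 peak, and of all 71165 regions 37.7% did. These shares were not tested.

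Of the 80 Brg1 peaks, 27 overlapped H3K27Ac peaks of both P0 libraries and 41 those of either. An active mark, H3K4me3 or H3K27Ac in at least 1 P0 library, was found at 49, and 31 had neither. H3K27me3 islands overlapped 28, of which 8 had no active mark. Over all 50861 Brg1 peaks, 26.6% overlapped H3K27Ac of both P0 libraries and 42.0% that of either, 51.3% had an active mark and 48.7% had none, 21.5% overlapped an H3K27me3 island, and 8.42% an island with no active mark. The shares of the 80 were not tested against these. Hes5 and Notch1 held the most without an active mark, 7 of 13 and 10 of 19. The 10 peaks near the start of another gene, 4 of them around Dll3, may belong to that gene.

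**Figure D4:**
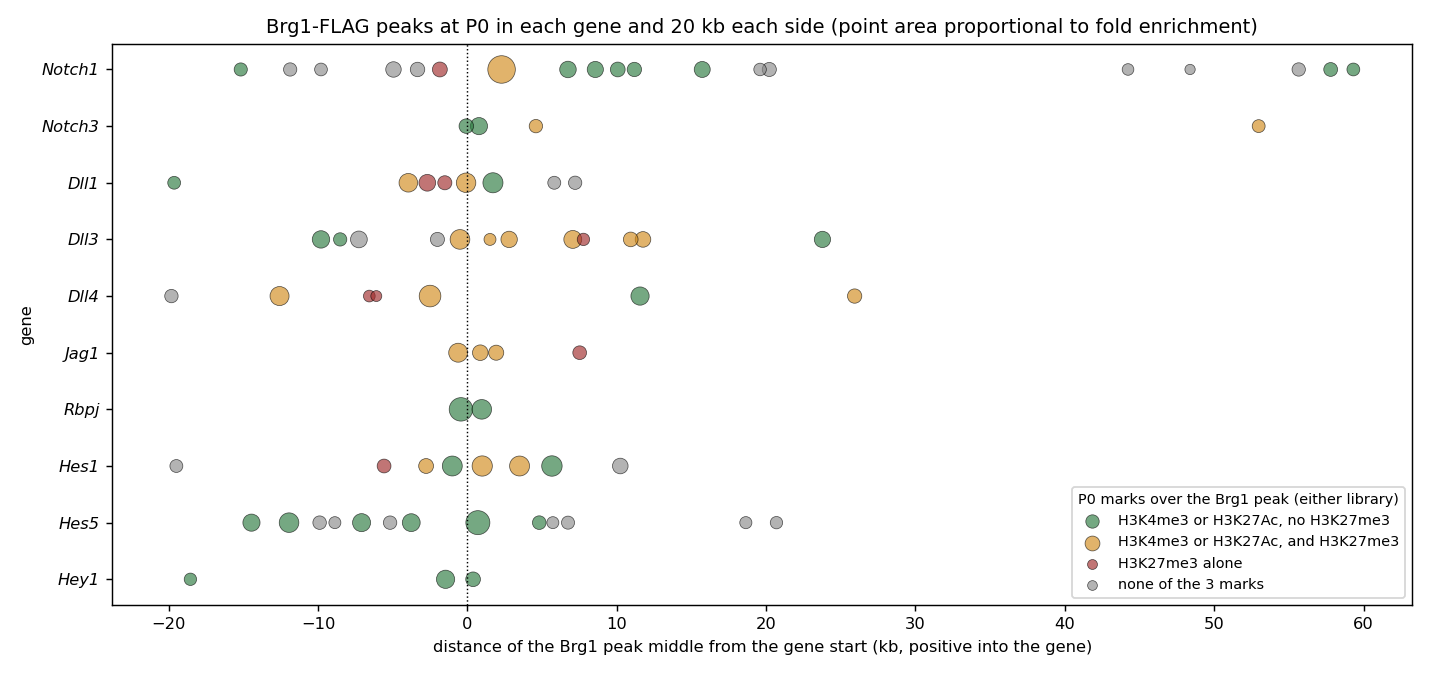
Brg1 peaks of the P0 Brg1-FLAG library in the 10 genes and 20 kb flanks, by distance of the peak's middle from the gene start (kb), with point area proportional to fold enrichment and colour for the P0 marks over the peak. The highest peak, 16.6, lies at the Notch1 start, and Rbpj has only 2 peaks, both within 2 kb of its start.

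H3K27me3 was read as the presence of an island called by the authors within 2 kb of the start. Dll1 and Dll4 had one in all 9 libraries, and Rbpj and Hey1 in none, as 55.1% of placed genes. At P0, Rbpj, Hes5 and Hey1 had no island (69.2% of placed genes), and at P14 and P21 these 3 and Dll3 had none (64.8%). The islands of Notch1, Notch3 and Hes1 were missing only from P0 replicate 1. With Dll1 and Dll4 they were 5 genes with islands in all 4 P14 and P21 libraries, where 17.5% of placed genes had them. The pattern of islands in fewer than 2 P0 libraries and all 4 later ones was found for Notch1, Notch3 and Hes1 of the 10 and for 3.46% of placed genes. With a window of 1 kb, Dll1 also had it. The Hes1 island was 3.40 kb long in P0 replicate 2 and 8.60 to 15.2 kb at P14 and P21. Notch1 had 4.0 kb in P0 replicate 2 and 6.0 to 9.0 kb at those stages. The list of P0 replicate 1 was the shortest, with 12188 islands against 20743 in P0 replicate 2, and the part of that difference in the P0 pattern was not tested.

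Jag1 again had the opposite order. It had islands of 5.80 and 7.40 kb at P0, 8.60 kb in P14 replicate 1, and none in P14 replicate 2 or either P21 library. Islands in both P0 and neither P21 library were found for 4.03% of placed genes. H3K4me3 and H3K27me3 were both present within 2 kb of the start in both P0 libraries at Dll1, Dll4 and Jag1, as at 18.1% of placed genes. The Dll1 island of P0 replicate 1 (chr17:15515601-15521799 of mm9) lay over 1 kb from the start. It did not overlap the H3K4me3 peak of P0 replicate 1, which ended at 15514265. With a window of 1 kb, Dll1 no longer had the pattern. Of these 3, Jag1 alone had no island at P21, and Jag1 alone had both P21 H3K27Ac heights above both P0 heights. Dll3 had islands of 18 kb in P0 replicate 1 and 1.80 kb in P12 wild-type replicate 1 only, and Hes5 one of 7.40 kb in P12 wild-type replicate 1. The number of genes with an island was 4 and 6 at P0, 6 and 5 at P14, and 5 and 5 at P21, where 22.1% to 30.8% of placed genes had one across the libraries.

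**Figure D5:**
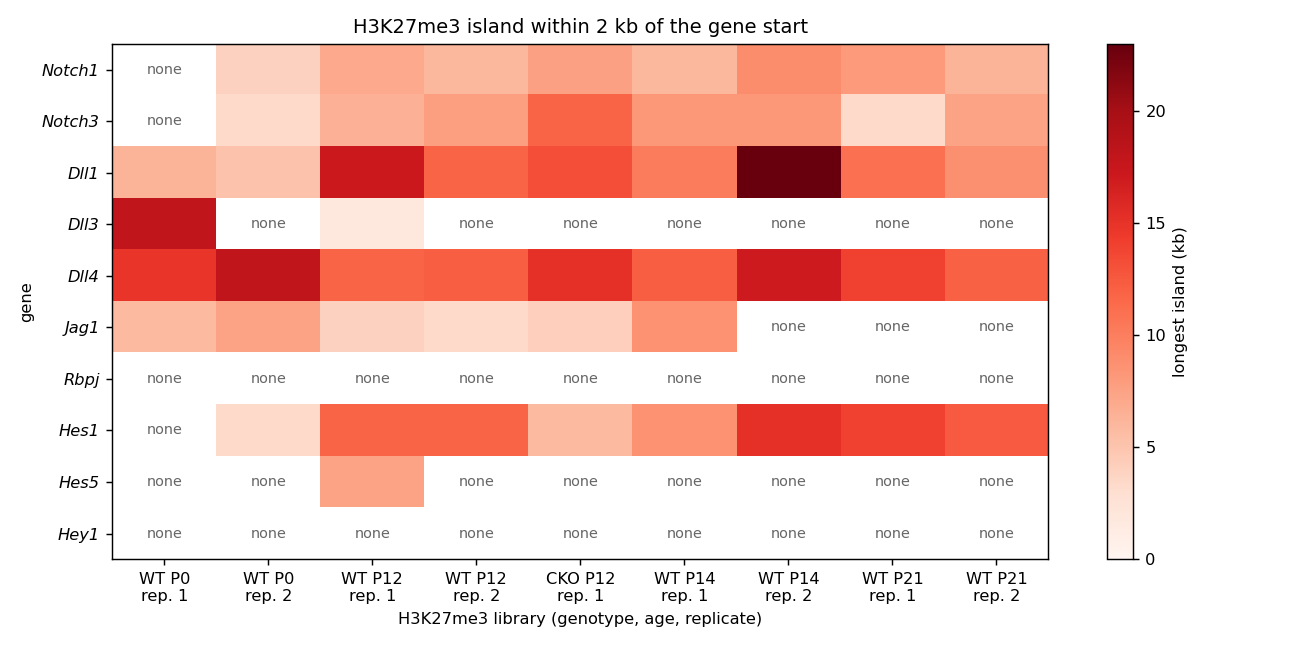
H3K27me3 islands within 2 kb of the start for the 10 genes in the 9 H3K27me3 libraries, AB1 at P0, P14 and P21 and AB3 at P12. Filled cells hold an island, with colour for the length of the longest (kb), and white cells marked none hold no island. Shades are not compared between AB1 and AB3. Dll1 and Dll4 are filled in all 9, Rbpj and Hey1 in none, and Jag1 is filled at P0 and P12 and white at P21.

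Brg1-deficient and wild-type retinae were compared at P12. For Brg1-deficient retinae of this age, the study reported a raised progenitor gene signature and lower photoreceptor gene expression. A difference in cell make-up and a dependence of the marks on Brg1 therefore cannot be told apart here. For H3K4me3 there was 1 library per genotype, so the difference has no replicate check and is given without a test. The Brg1-deficient heights were scaled up by 1.52 to the wild-type median. Notch1 had 37.4 in the wild-type library and 14.6 in the Brg1-deficient one, a scaled ratio of 0.593, and Jag1 had 63.9 and 31.4, a ratio of 0.745. Notch3 had 30.0 and 18.02, Dll1 62.3 and 42.4, and Dll4 28.6 and 27.5. Hes1 had 71.7 and 53.1, Hes5 40.5 and 27.97, and Hey1 56.5 and 42.3. The scaled ratios of these 6 lay between 0.910 and 1.46. Rbpj went the other way, with 37.2 and 74.1 and a ratio of 3.02, above 99.9% of promoters. The ratio is one of heights alone. The wild-type and Brg1-deficient peaks of Rbpj were alike in length, 3438 and 3452 bp. They were also alike in the deposited −log10 q-value, which measures the evidence for a peak, at 356 and 357. Why only the heights differed was not tested. Its wild-type P12 height was the lowest of its 8 H3K4me3 heights. Dll3 had 7.59 in the wild-type library and no peak in the Brg1-deficient one, as had 2.44% of promoters with a wild-type peak.

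At a limit of 2-fold, 0 of the 9 genes were lower and 1, Rbpj, higher, where 2.22% of 10120 promoters were lower and 2.20% higher. Without scaling, Notch1 and Jag1 were at least 2-fold lower, among 1815 promoters. No gene of the 9 was then at least 2-fold higher, as 7 promoters were. The unscaled log2 difference of Rbpj was 0.992, just short of the limit, so its place past 2-fold depended on the scaling. H3K27Ac allowed a fit with 2 Brg1-deficient libraries, in which the lone wild-type P12 library was assumed to vary like the other groups. Jag1 had 9.42 in the wild-type library and 9.59 and 9.67 in the Brg1-deficient ones, Hey1 15.5 against 15.4 and 19.3, and Hes5 9.04 against 14.1 and 8.27. The Hes5 height of 14.1 came from a peak at chr4:154337179-154339045 of mm9 that covered the start of Pank4 and lay 1.95 kb from the Hes5 start, while the other P12 peaks covered the Hes5 start, and with a window of 1 kb the difference of Hes5 was -0.27. Rbpj had 11.1 against 21.1 and 20.3, the only one of these 4 with both Brg1-deficient heights well above the wild-type one. After scaling these stood at 9.87 against 15.3 and 15.1. The lone wild-type P12 height was the lowest of the scaled H3K27Ac heights of Rbpj in the 9 libraries. The scaled differences were 0.42 (SE 0.32) for Rbpj, -0.13 (SE 0.30) for Jag1, 0.00 (SE 0.33) for Hes5 and -0.08 (SE 0.30) for Hey1, each with adjusted p = 0.9996 in limma.

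Notch1, Dll1, Dll3, Dll4 and Hes1, which lacked a peak in some H3K27Ac libraries of the stages, had P12 peaks in both genotypes, so that 9 of the 10 had one in all 3 libraries, where 56.3% of placed genes did. Notch1 had 4.85 in the wild-type library and 6.44 and 8.25 in the Brg1-deficient ones, Dll1 8.95 against 10.9 and 8.68, and Dll3 4.02 against 6.82 and 3.46. Dll4 had 3.53 against 5.65 and 5.02, and Hes1 5.66 against 6.06 and 9.40. Notch3 had no promoter H3K27Ac peak in any of the 3 P12 libraries, as 37.4% of placed genes. By limma, 0 of 4865 promoters and 0 of 6341 regions were called between the genotypes, so 0% were called. At an unadjusted p under 0.05 there were 76 and 88. The features tested included 4 promoters of the 10 genes and 7 regions in their windows, and none of these was called. Of the 7 regions, those in the windows of Notch1, Dll1 and Hes5 lay near the start of another gene. The standard errors of 0.30 to 0.33 set how small a difference these libraries could show. In simulated data, a log2 change of 1 was called at 0 of 200 changed promoters and 2 of 200 changed regions. The absence of calls therefore does not speak to changes of that size. H3K27me3 islands were present at Notch1, Notch3, Dll1, Dll4, Jag1 and Hes1 in both wild-type P12 libraries, where 23.7% of placed genes had one, and all 6 also had one in the Brg1-deficient library, a pattern of 21.1% of placed genes. None of the 10 had an island in both wild-type libraries and not in the Brg1-deficient one, or in the Brg1-deficient one alone, patterns found for 2.65% and 2.56%.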

How the data were processed

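Peak lists of 18 ChIP-Seq libraries (Brg1-FLAG, H3K27Ac and H3K4me3) and island lists of 9 H3K27me3 libraries were analysed; input libraries were not analysed here. The authors deposited peaks called in each library alone, and per the submitters' processing notes the tools were CASAVA, BWA 0.5.9-r26, Picard 1.65, SAMtools, MACS2 2.0.9, SICER 1.1, bedtools 2.17.0 and R 2.14.0, on mm9. The deposited height of a peak is its fold enrichment, a ratio over background. Of the deposited −log10 p-values and −log10 q-values, only the latter were used. They served to take the strongest 50% of peaks as an alternative and to describe the H3K4me3 peaks of Rbpj at P12. The deposited islands carry a whole-number score, which was not used. Reads per library are not given in the sources used here, so depth is unknown, and weak peaks can be missed in shallow libraries.

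Starts of 17275 of 21627 coding genes were taken from the GRCm38 table and moved by the local offset of coding genes within 5 Mb. After this 60.1% of starts lay within 1 kb of a P0 H3K4me3 peak, against 8.57% before. Of these genes, 15560 whose offsets from 5 Mb and 2 Mb agreed within 2 kb were placed. For the 10 genes the offsets differed by at most 350 bp, but around Dll1 only 26 of 87 starts lay near a peak. Peaks or islands overlapping by at least 1 bp were counted, and overlapping H3K27Ac peaks were merged into regions.

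Heights were scaled to the same median and compared with limma 3.58.1 in R 4.3.3 on log2(height + pseudocount), the pseudocount being the 5th percentile of heights, which understates changes of low peaks. Benjamini-Hochberg adjustment ran over all features with a peak in every library, with a threshold of 0.05. The comparison of genotypes used all 9 H3K27Ac libraries. The fit was tested on simulated data, with 200 features changed and the same spread for every feature. For P14 against P0, a log2 change of 1 was recovered at 0 H3K4me3 promoters, 20 H3K27Ac promoters and 0 H3K27Ac regions. A log2 change of 2 was recovered at 165, 158 and 144 of the 200. Between genotypes, a log2 change of 1 was recovered at 0 H3K27Ac promoters and 2 regions, and one of 2 at 116 of each. Python 3.11.15, numpy 2.4.6, pandas 2.3.3 and matplotlib 3.10.9 were used.

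The 10 genes, the list of 54 other pathway genes and the cell type lists were chosen with earlier results of these data known. All 10 genes were named, and other pathway genes by the largest change among those called, at most 3 in each direction. Alternatives were another filter, no scaling, a pseudocount of 1, a window of 1 kb, fits of only the stages compared, a replicate block and leaving out each library.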

Additional observations from a re-analysis of the deposited data

How the results depend on the processing

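Calls at the promoters and regions depended on scaling, filter and library. Without scaling 0 promoters or regions were called at either stage in any of the wild-type comparisons, so that Notch1 and Notch3 were not called for H3K4me3. With a peak needed in only 2 libraries, 193 promoters in place of 125 were called for H3K4me3 at P14, and 0 for H3K27Ac promoters or regions at P14 or P21. A pseudocount of 1 called 311 and 823 H3K4me3 promoters at P14 and P21, in place of 125 and 480. It called 51 and 94 H3K27Ac promoters (16 and 23 as reported). It called 112 and 239 H3K27Ac regions (64 and 178), and 1 of the 239 at P21 was at Jag1. Fitting only P0 and P21 called 168 H3K27Ac promoters, 1 of them Jag1, and 295 regions in place of 178. Leaving out 1 library each gave 31 to 51 H3K4me3 promoters at P14 and 64 to 314 at P21, with 0 to 1 and 0 to 2 of the 10 genes called. It gave 0 to 145 and 0 to 44 H3K27Ac promoters, and 0 to 215 and 0 to 289 regions, with 0 of the 10 genes. Genotype calls stayed at 0 under each alternative run.

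The labels give shared numbers only, so the replicate numbers were not taken as pairs. Differences between replicates 1 and 2 correlated across promoters with r = 0.16 between P0 and P21 for H3K4me3, and with 0.01, 0.01 and 0.26 between P0 and P14, P0 and P21, and P14 and P21 for H3K27Ac. With a replicate block, 887 H3K4me3 promoters were called at P21, 85 and 116 H3K27Ac promoters at P14 and P21, and 183 and 321 regions, with 1 Jag1 region at P21. The block was added, after seeing the data, to the comparisons whose groups share only 1 number. It called 239 H3K4me3 promoters at P14, 1 of them Notch1 (adjusted p = 0.0277), and 0 promoters or regions between the genotypes, and H3K27Ac of Hes5 between them was -0.079.

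Small differences changed sign. Jag1 H3K4me3 at P14 was -0.070 without scaling and -0.14 to 0.25 with 1 library left out. Leaving out 1 library at P21 gave -0.10 to 0.60 for Jag1, -0.40 to 0.25 for Rbpj, -0.090 to 0.24 for Hes1 and -0.26 to 0.051 for Hey1. For H3K27Ac it gave -0.010 to 0.28 for Hey1 and -0.45 to 0.12 for Hes5 at P14, and -0.36 to 0.065 for Hes5 at P21. Between genotypes, H3K27Ac of Jag1 was 0.021 and of Hey1 0.12 without scaling, Hes5 was -0.0074 with a pseudocount of 1 and -0.27 with a window of 1 kb, and leaving out 1 library gave -0.21 to 0.21 for Hes5 and -0.21 to 0.047 for Hey1. The cause of these changes was not tested. Of the 344 values of single genes and regions under the alternatives, 305 kept direction and side of the threshold, 17 lost a call, 3 gained one and 19 changed sign.

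With only the strongest 50% of peaks, 2 of the 10 promoters had a peak in H3K27Ac P14 replicate 1 and 5 in H3K4me3 P21 replicate 2, in place of 6 and 9, where 29.4% and 47.0% of placed genes had one in place of 40.6% and 63.7%, and 49 Brg1 peaks remained of 80. Of the 80, 41 overlapped H3K27Ac of either P0 library in place of 27 for both. Unscaled H3K4me3 at P12 put 2 of the 10 genes and 1815 promoters at least 2-fold lower in Brg1-deficient retinae. It put 0 of the 10 genes and 7 promoters at least 2-fold higher, so Rbpj no longer passed that limit. Depth is unknown, so a missing peak in a short list may be a missed one, and 2 libraries per group allow only large changes to be called.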
